A study of Mus musculus with 4 samples.

Results

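Toll-like receptors are the pattern receptors through which dendritic cells sense microbial nucleic acids, lipids and proteins, and Unc93b1 is the membrane chaperone that carries the nucleic-acid-sensing receptors from the endoplasmic reticulum to endosomes. This account follows 10 genes, namely Unc93b1 and the 9 receptor genes Tlr2, Tlr3, Tlr4, Tlr7, Tlr8, Tlr9, Tlr11, Tlr12 and Tlr13. They were picked by gene symbol from the 27179 genes of the deposited count table, and each of the 10 was found there. The cells were plasmacytoid dendritic cells (pDCs), immune cells known for type I interferon secretion, grown from bone marrow precursors of C57BL/6 mice for 8 days in Flt3 ligand. All cultures received imiquimod, a small molecule that activates the Tlr7 receptor, at 1 µg/ml for 24 h. The pDCs were sorted with SiglecH and CD11b and divided by blue fluorescent protein (BFP), the reporter of the chemokine gene Cxcl10, into 2 groups, BFP-positive and BFP-negative, of 2 libraries each. The sample labels call the BFP-negative population CXCL10+BFP- and the series text calls it CXCL10-BFP-, so what else than BFP defined it is not settled and the groups here rest on BFP alone. Libraries of the same replicate number also share a code in their titles, whose meaning is not stated. All 4 libraries come from stimulated cells and no unstimulated library was analysed here. The labels do not make clear which level of CD11b was taken, where the BFP gate lay, whether the 2 libraries of a group came from separate animals, or the age and sex of the animals, so p-values measure only the spread between these libraries.

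In mouse pDCs the endosomal receptors Tlr7 and Tlr9 are known as sensors of RNA and of unmethylated CpG DNA. Both signal through the adaptor Myd88 to the transcription factor Irf7. Tlr12 and Tlr11 recognise a profilin of the parasite Toxoplasma, Tlr13 recognises bacterial ribosomal RNA, and Tlr3 recognises viral RNA duplexes and signals through Ticam1 in place of Myd88. Tlr2 and Tlr4 act at the cell surface on lipoproteins and lipopolysaccharide and are typical of myeloid cells. The split by BFP asks how stimulated pDCs that switched on the reporter differ from those that did not.

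The stretches of DNA just before the start sites of 3 receptor genes are printed because 2 of these genes, Tlr12 and Tlr13, passed the test of the BFP split and the third, Tlr9, the classic DNA sensor of pDCs, had overlapping groups. They come from RefSeq on GRCm38.p6, read 5′ to 3′ on the gene's strand, and end before the first base that the RefSeq or GENCODE annotation places in the gene. The Tlr12 stretch is chr4:128618620-128618869 on the minus strand, the Tlr9 stretch chr9:106222348-106222597 on the plus strand and the Tlr13 stretch chrX:106143025-106143203 on the plus strand. Capitals mark AGGAAG on either strand, letters found in many binding sites of the ETS family, to which the pDC and myeloid factors SpiB and PU.1 belong.
Tlr12: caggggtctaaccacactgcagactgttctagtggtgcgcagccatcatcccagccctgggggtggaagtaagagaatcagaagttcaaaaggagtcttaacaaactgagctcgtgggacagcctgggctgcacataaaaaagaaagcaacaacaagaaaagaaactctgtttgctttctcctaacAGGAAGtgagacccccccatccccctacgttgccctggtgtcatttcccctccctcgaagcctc
Tlr9: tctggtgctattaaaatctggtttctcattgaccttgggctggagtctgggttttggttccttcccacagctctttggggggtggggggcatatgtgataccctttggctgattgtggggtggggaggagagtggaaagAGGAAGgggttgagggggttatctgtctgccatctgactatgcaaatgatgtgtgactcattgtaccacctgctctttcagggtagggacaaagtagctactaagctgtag
Tlr13: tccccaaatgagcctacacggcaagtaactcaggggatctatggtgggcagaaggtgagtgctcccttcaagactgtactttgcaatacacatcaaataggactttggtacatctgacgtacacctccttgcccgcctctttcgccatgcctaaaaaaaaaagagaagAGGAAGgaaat

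Of the 10 genes, 7 had a promoter entry, and 5 of these 7 (Tlr2, Tlr9, Tlr11, Tlr12 and Tlr13) held AGGAAG on either strand within 250 bases before the start, against 29.5% of 32851 promoter windows of the same length. In Tlr12, which was lower in BFP-positive cells, the match begins 64 bases before the RefSeq start, and in Tlr13, which was higher, 82 bases before it. The printed Tlr13 stretch holds only 179 bases, because GENCODE places the rest of the searched window inside the gene. Its match therefore lies nearer to the printed end. The letters are thus shared by receptor genes that moved in opposite directions and by Tlr9. The letters of the interferon-stimulated response element, searched on either strand as GAAA and GAAA separated by any 2 bases, stood in the window of 1 of the 7, Tlr11, and in 2.98% of all windows. A composite of the ETS and interferon factor letters, GGAA and GAAA separated by any 2 bases, stood in 0 of the 7 and in 2.30% of all windows. An NF-kB pattern, GGG and CC separated by any 5 bases, stood in 3 of the 7 (Tlr2, Tlr3 and Tlr12) and in 45.8% of all windows. A match of letters describes the window and is no measured binding site.

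Each library held 11868254 to 12570117 counts in total, and 1 count equalled 0.0788 to 0.0858 CPM (a count divided by its library's total and put on a common scale, here with TMM factors, edgeR's correction for library composition). A gene with 0 counts may hold up to 3, or 0.236 to 0.257 CPM, a bound for counting error alone. Cxcl10, the gene of the reporter, had 149 and 154 counts in BFP-positive cells against 3 and 19 in BFP-negative cells, which checks the labels. Across the table, BFP-positive cells were higher in 890 and lower in 411 of 11706 tested genes. This used edgeR's quasi-likelihood test with a threshold of 0.05 on the adjusted p. Limma on the authors' log2 RPKM tested a different set of 9846 genes, of which 670 were higher and 542 lower. Of the sort markers, Siglech was at 610.4 and 614 CPM in BFP-negative and at 784 and 820 CPM in BFP-positive cells. The CD11b gene Itgam was at 1.77 and 4.10 CPM against 9.60 and 10.6 CPM.

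Of the 10 genes, 7 passed the filter on low counts, and Tlr3, Tlr8 and Tlr11 did not. Among these 7, Tlr13 was higher in BFP-positive cells and Tlr12 was lower, while Tlr2, Tlr4, Tlr7, Tlr9 and Unc93b1 did not pass the test. The background over all tested genes was 11.1% called, 7.6% higher and 3.51% lower. Both libraries of a group lay apart from both of the other in 5 of the 7 genes, where the background was 54.2%, made up of 27.1% higher and 27.1% lower. The median log2 fold change, BFP-positive over BFP-negative, was -0.08 over the 7 genes and -0.02 over all tested genes. Tlr13 passed the filter only through the BFP-positive libraries. Tlr4, with 0 and 18 BFP-negative counts, also needed the BFP-positive libraries to pass it. These counts of genes are therefore no measure of the family as a whole. In bulk RNA, fewer cells that express a gene and less RNA per cell cannot be told apart.

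**Figure D1:**
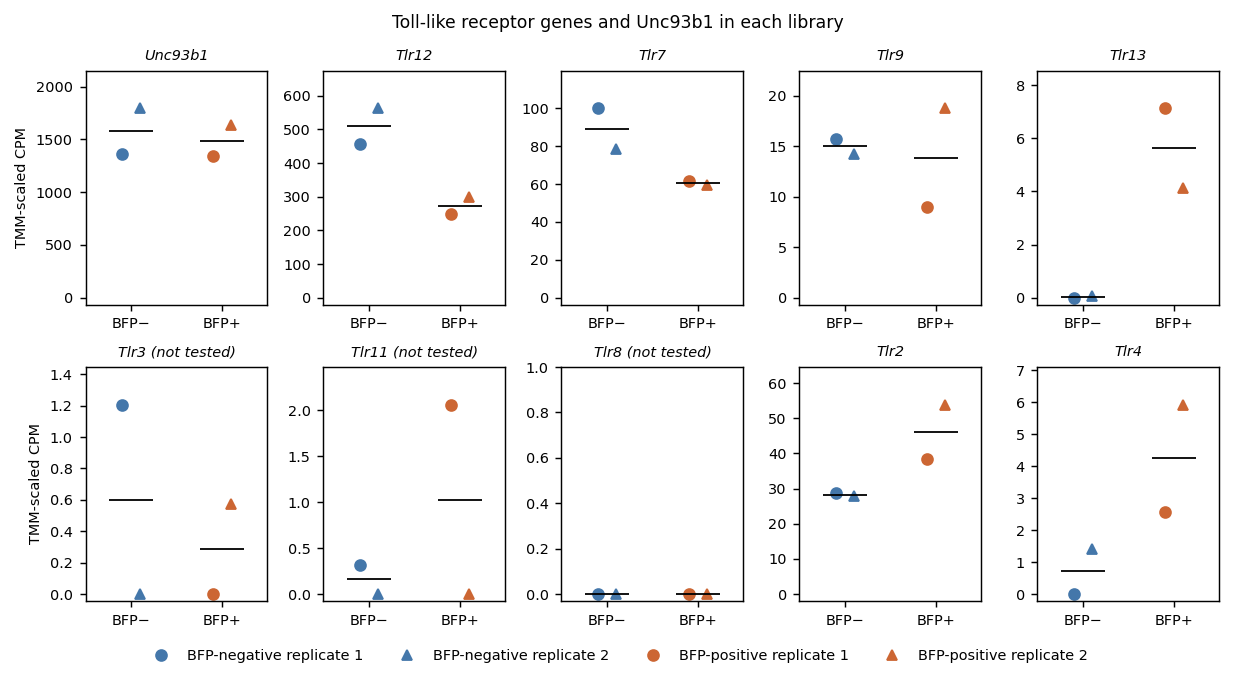
TMM-scaled CPM (vertical axis, linear and different in each panel) of the 10 genes in the 2 BFP-negative and 2 BFP-positive libraries; each point is a library, the shape gives the replicate number and the bar is the group mean. Tlr12 and Tlr7 lie lower and Tlr2, Tlr4 and Tlr13 higher in both BFP-positive libraries, while the groups overlap for Unc93b1 and Tlr9.

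Among the endosomal genes, Tlr12 showed the clearest fall. Tlr12 (Entrez gene 384059, chromosome 4, 128615446 to 128618619, GRCm38) was at 456 and 562 CPM in BFP-negative replicates 1 and 2 and at 248 and 299 CPM in BFP-positive replicates 1 and 2. Both BFP-positive libraries lay below both BFP-negative ones. The fall was 1.86-fold, from 509 ± 74.6 to 274 ± 36.5 CPM (SD, n = 2). The log2 fold change was -0.90, SE 0.15, and edgeR's quasi-likelihood test gave an adjusted p of 0.00373. It passed the test in each of the 15 alternative settings, at log2 fold changes of -1.04 to -0.72 when 1 library was left out.

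Tlr7, the receptor of the imiquimod that was added to every culture, had lower values in the BFP-positive cells without passing the test. Tlr7 (Entrez gene 170743, chromosome X, 167303380 to 167330574) was at 99.9 and 78.3 CPM in BFP-negative and at 61.4 and 59.7 CPM in BFP-positive cells. The groups did not overlap, and the spread was wider among the BFP-negative libraries. Its log2 fold change was -0.56, SE 0.18, and edgeR's quasi-likelihood test gave an adjusted p of 0.0781. With the replicate number as a block, the adjusted p was 0.036 in edgeR, 0.0278 in limma-voom and 0.0886 in DESeq2. Tlr7 passed without BFP-negative replicate 2 (-0.70, adjusted p = 0.0388) and was at -0.37 without BFP-negative replicate 1 (adjusted p = 0.353). Over the 4 libraries, the tested genes of at least 20 CPM whose centred log2 CPM lay nearest to that of Tlr7 were Comtd1, Asns and Eef1g, at Euclidean distances of 0.02, 0.04 and 0.06 among 6007 genes. This likeness rests on 4 points that share their libraries.

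Tlr9 (Entrez gene 81897, chromosome 9, 106222598 to 106226876) was at 15.7 and 14.3 CPM in BFP-negative and at 9.0 and 18.8 CPM in BFP-positive cells. The BFP-positive libraries enclosed the BFP-negative ones, with replicate 1 the lowest and replicate 2 the highest of all 4. Its log2 fold change was -0.11, SE 0.38, and edgeR's quasi-likelihood test gave an adjusted p of 0.905, and the value moved to 0.32 without BFP-positive replicate 1 and to -0.73 without replicate 2 of that group. These libraries therefore fix neither a direction nor a size for Tlr9.

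Unc93b1 (Entrez gene 54445, chromosome 19, 3935158 to 3949340), on whose protein Tlr3, Tlr7, Tlr9, Tlr11, Tlr12 and Tlr13 depend for reaching endosomes, was at 1362 and 1792 CPM in BFP-negative and at 1342 and 1632 CPM in BFP-positive cells. The groups overlapped, and in both groups replicate 2 was the higher. Its log2 fold change was -0.08, SE 0.15, and edgeR's quasi-likelihood test gave an adjusted p of 0.788. The sign turned without BFP-negative replicate 2 or, in the other group, replicate 1, at 0.15 and 0.05. The chaperone gene was thus measured with high counts, 15653 to 22739 per library, and showed no difference beyond the spread between libraries.

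Tlr13 was the other gene to pass the test. Tlr13 (Entrez gene 279572, chromosome X, 106143275 to 106160493) was nearly absent from the BFP-negative libraries, at 0 and 1 counts, and had 83 and 50 counts in BFP-positive cells, or 7.12 and 4.11 CPM. Summed over the libraries, the ratio was 140 (exact 95% interval for counting error 24.8 to 5590). It passed edgeR's quasi-likelihood test at an adjusted p of 0.00366. The fitted log2 fold change of 6.82, SE 1.12, depends on the single BFP-negative count. Leaving out BFP-negative replicate 1 gave 5.99; leaving out replicate 2 of that group gave 9.10, a fit to 0 counts that measures no size.

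The remaining endosomal receptors were at the edge of detection. Tlr3 (chromosome 8, 45395665 to 45411075) had 15 and 0 counts in BFP-negative and 0 and 7 counts in BFP-positive libraries, so each group held a library with none. In the annotation, 381 bases of Tlr3 exons overlap an antisense transcript, Gm45542, which a count without strand cannot tell apart; the exons of the other 9 genes overlap no other gene. Tlr11 (chromosome 14, 50357914 to 50363663), which acts with Tlr12 in sensing profilin, had 4 and 0 counts in BFP-negative and 24 and 0 in BFP-positive libraries. Its counts came from the 2 libraries numbered 1. Tlr8 (chromosome X, 167241123 to 167264329), which lies 39.0 kb from Tlr7, had no count in any library and was not detectable above 0.236 to 0.257 CPM.

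The surface receptors had higher values in BFP-positive cells without passing the test. Tlr2 (Entrez gene 24088, chromosome 3, 83836272 to 83841824) was at 28.8 and 27.8 CPM in BFP-negative and at 38.5 and 53.8 CPM in BFP-positive cells. The groups were apart, and BFP-positive replicate 2 was the highest. Its log2 fold change was 0.70, SE 0.23, and edgeR's quasi-likelihood test gave an adjusted p of 0.0788. With the replicate number as a block, the adjusted p was 0.0491 in edgeR, 0.0415 in limma-voom and 0.125 in DESeq2. Tlr2 passed without BFP-positive replicate 1 (0.93, adjusted p = 0.0421) and was at 0.45 without BFP-positive replicate 2 (adjusted p = 0.469).

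Tlr4 (Entrez gene 21898, chromosome 4, 66827551 to 66846581) had 0 and 18 counts in BFP-negative and 30 and 72 counts in BFP-positive libraries, or 0 and 1.42 against 2.57 and 5.92 CPM. All 4 values were low and the libraries of each group differed widely. Summed counts stood at a ratio of 5.98 (exact 95% interval for counting error 3.60 to 10.5, which leaves out the spread between libraries). Its log2 fold change was 2.56, SE 1.21, and edgeR's quasi-likelihood test gave an adjusted p of 0.227. Without BFP-negative replicate 2 the fit to 0 remaining BFP-negative counts passed (8.69, adjusted p = 0.0056), which is no measured size.

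**Figure D2:**
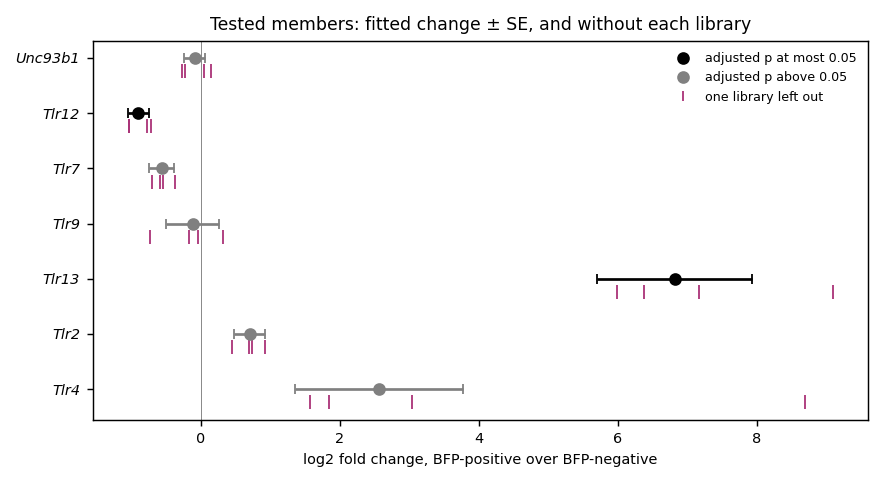
Fitted log2 fold change of the 7 tested genes (BFP-positive over BFP-negative, points, with SE as bars; black where adjusted p is at most 0.05 in edgeR's quasi-likelihood test), with the values after leaving out each library as ticks below. Tlr12 stays between -1.04 and -0.72, Tlr9 and Unc93b1 fall on both sides of 0, and the ticks of Tlr4 and Tlr13 beyond 8 are fits to 0 counts.

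Levels of different genes can be set side by side only per gene length, for which the authors' log2 RPKM values were used. In BFP-negative cells the order was Unc93b1 (9.28 and 9.64 log2 RPKM), Tlr12 (7.22 and 7.48), Tlr7 (4.79 and 4.40), Tlr2 (3.39 and 3.30) and Tlr9 (2.23 and 2.05), and no 2 neighbours in it overlapped. In BFP-positive cells Unc93b1 (9.18 and 9.45) and Tlr12 (6.26 and 6.52) led again. There Tlr7, at 4.01 and 3.96 log2 RPKM, lay inside the range of Tlr2, at 3.73 and 4.20, so these neighbours could not be ordered. Tlr9 followed at 1.35 and 2.40, then Tlr13 at 0.80 and 0.00, with Tlr4 at -0.60 and 0.59 log2 RPKM inside the spread of Tlr13 at its upper end. Tlr3 and Tlr11 were below 0 on this scale in every library.

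Within a library, ratios of RPKM do not depend on the library total. The ratio of Tlr7 to Tlr2 was 2.64 and 2.15 in BFP-negative and 1.22 and 0.846 in BFP-positive libraries. Unc93b1 stood at 4.18 and 4.47 times the RPKM of Tlr12 in BFP-negative and at 7.58 and 7.63 times in BFP-positive libraries. Of 6 such ratios computed, these 2 and that of Tlr12 to Tlr9 (31.7 and 43.0 against 30.1 and 17.4) did not overlap between the groups. The CPM of 54.2% of all tested genes did not overlap either, and the ratios share genes, so this count is no result by itself. The other 3 overlapped, namely Tlr12 to Tlr7 (5.39 and 8.46 against 4.76 and 5.92), Tlr7 to Tlr9 (5.88 and 5.08 against 6.31 and 2.95) and Unc93b1 to Tlr7 (22.5 and 37.8 against 36.1 and 45.2). Tlr12 held 77.5% and 83.4% of the summed RPKM of the 9 receptor genes in BFP-negative libraries and 68.7% in each BFP-positive library, so it was the most abundant of these receptors per length in all 4. The share of Tlr7 was 14.4% and 9.86% in BFP-negative and 14.4% and 11.6% in BFP-positive libraries, with overlapping groups, whereas that of Tlr2 was 5.45% and 4.59% against 11.9% and 13.7%. The share of Tlr7 thus overlapped between the groups although its CPM did not. Both shares are of a sum that was mostly Tlr12, itself lower in BFP-positive cells, so they do not measure Tlr7 or Tlr2 alone.

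**Figure D3:**
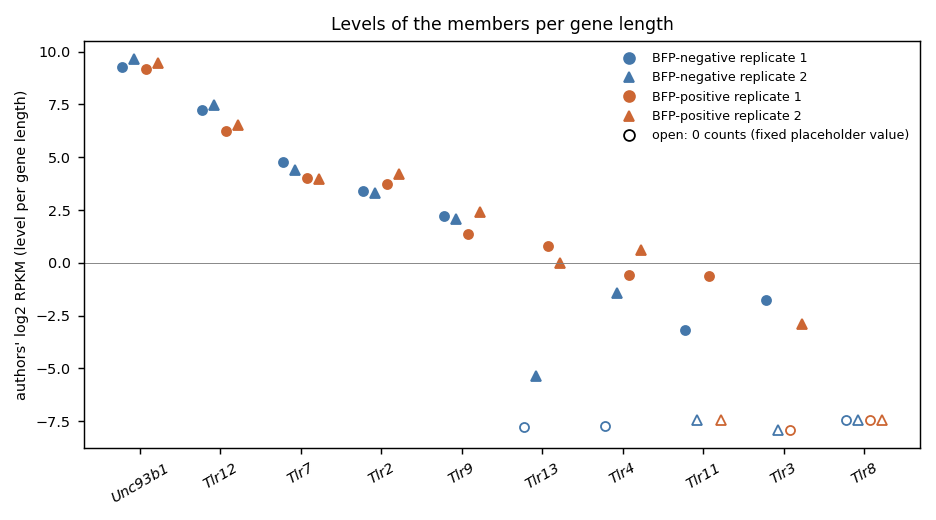
The authors' log2 RPKM (vertical axis, level per gene length) of the 10 genes in each library; filled points are libraries with at least 1 count and open points are fixed values that the table gives for 0 counts. Unc93b1 leads at 9.18 to 9.64, Tlr12 follows at 6.26 to 7.48, and Tlr7 and Tlr2 converge in the BFP-positive libraries.

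Tlr1, Tlr5 and Tlr6 complete the mouse family; the proteins of Tlr1 and Tlr6 pair with that of Tlr2 to recognise lipopeptides. Tlr1 was at 7.55 and 4.49 CPM in BFP-negative and at 16.8 and 25.0 CPM in BFP-positive cells. It rose by a log2 fold change of 1.80, SE 0.38, and edgeR's quasi-likelihood test gave an adjusted p of 0.0143, a call lost without BFP-positive replicate 2 (adjusted p = 0.0738). Tlr6, which lies 19.5 kb from Tlr1 on chromosome 5 and is a close copy of it, was at 3.85 and 3.39 against 6.17 and 6.99 CPM and did not pass (log2 fold change 0.86, SE 0.50). Reads may be split or lost between these copies, so both values are uncertain. Tlr5, the flagellin receptor, had no count in any library.

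The genes that fold, carry and supply the endosomal receptors moved in both directions. Of 20 listed, 19 were found and tested, and 2 rose and 3 fell, or 26.3% called against 11.1% of all tested genes. This list and those below were chosen with earlier results of these data known, so their shares called test no list. Hsp90b1, the endoplasmic reticulum chaperone that folds Toll-like receptors, fell from 614 and 484 CPM to 337 and 307 CPM (log2 fold change -0.77, SE 0.14). Cnpy3, its co-chaperone for these receptors, was at 257 and 272 CPM in BFP-negative and at 208 and 240 CPM in BFP-positive cells and did not pass (log2 fold change -0.24, SE 0.13). Lrrc59, which is known to help the receptors leave the endoplasmic reticulum, fell by 0.58 on the log2 scale, SE 0.14, a call lost without BFP-negative replicate 2 or either BFP-positive replicate (adjusted p = 0.0881, 0.17 and 0.0634).

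The paired lysosomal transporters of the list moved in opposite directions. Slc15a4, a histidine and peptide transporter needed for Tlr7 and Tlr9 signalling in pDCs, rose from 107 and 114 CPM to 174 and 226 CPM (log2 fold change 0.85, SE 0.16). Its call was lost without BFP-positive replicate 2 (adjusted p = 0.0668). Its relative Slc15a3 fell from 173 and 166 CPM to 91.5 and 109 CPM (log2 fold change -0.75, SE 0.15) and lost its call without BFP-positive replicate 1 (adjusted p = 0.0841). Rab7b, a small GTPase that directs Tlr4 and Tlr9 to lysosomes, rose 4.28-fold from 5.38 and 4.49 CPM to 16.0 and 26.2 CPM. Lrrc59 and Slc15a3 were named after their values were seen, because they complete the 5 genes called. The median log2 fold change of this list was -0.07.

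Of 12 genes of endosomal proteases and nucleases, which cut the receptors into their active form or trim their ligands, 11 were tested and 2 rose, or 18.2% called against 11.1% of all tested genes. Lgmn, an endopeptidase linked to Tlr9 processing, rose 6.52-fold from 30.2 and 25.7 CPM to 160 and 204 CPM. Ctss, a cathepsin, rose 2.57-fold from 878 and 904 CPM to 2231 and 2348 CPM. The 9 others did not pass, among them Pld3, an exonuclease that degrades Tlr9 ligands, at 42.2 and 48.8 against 61.5 and 59.1 CPM. The median log2 fold change over the list was 0.18.

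Of 7 co-receptor genes of the surface receptors, 6 were tested, 2 rose and 1 fell, against a background of 11.1% called. Cd14, which hands lipopolysaccharide to the Tlr4 complex and also serves Tlr2, rose 9.69-fold from 9.80 and 10.3 CPM to 99.3 and 95.8 CPM. Ly86, the partner of the Tlr4 homologue Cd180, rose 1.82-fold from 404 and 385 CPM to 706 and 728 CPM. Cd36, a scavenger receptor that assists Tlr2 pairs, fell from 516 and 402 CPM to 309 and 263 CPM, but did not pass once BFP-negative replicate 1 (adjusted p = 0.0629) or BFP-positive replicate 2 (0.102) was left out. Ly96, the subunit that Tlr4 needs to bind lipopolysaccharide, was at 38.6 and 40.8 against 41.2 and 38.9 CPM. The partners of Tlr4 thus differed among themselves, with Cd14 far apart between the groups and Ly96 overlapping. The median log2 fold change over the list was 0.06.

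Of 24 genes that signal below the receptors, all were tested, 3 rose and 21 did not pass. The share called, 12.5%, was close to the 11.1% of all tested genes. Myd88, the adaptor shared by the receptors other than Tlr3, rose 2.06-fold from 74.0 and 88.0 CPM to 144 and 190 CPM (log2 fold change 1.04, SE 0.18). Irf7, which drives interferon genes below Tlr7 and Tlr9, rose from 673 and 871 CPM to 1216 and 1240 CPM (log2 fold change 0.67, SE 0.13). Irak3, an inhibitory kinase of the pathway, was without counts in BFP-negative cells and had 23 and 13 counts in BFP-positive cells. It passed the filter on low counts only through the BFP-positive libraries, so its place among the 3 rests on that group. Against a floor of 3 counts over the BFP-negative group, the ratio of Irak3 was 12.7. That ratio takes the BFP-positive counts as exact and leaves out the spread between libraries. The call of Irak3 was lost with no filter on low counts (adjusted p = 0.0639 in edgeR's quasi-likelihood test). It was also lost without either BFP-negative library or BFP-positive replicate 2. The median log2 fold change over the list was 0.31. Higher Myd88 and Irf7 stood beside Tlr7 values that were lower without passing the test.

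**Figure D4:**
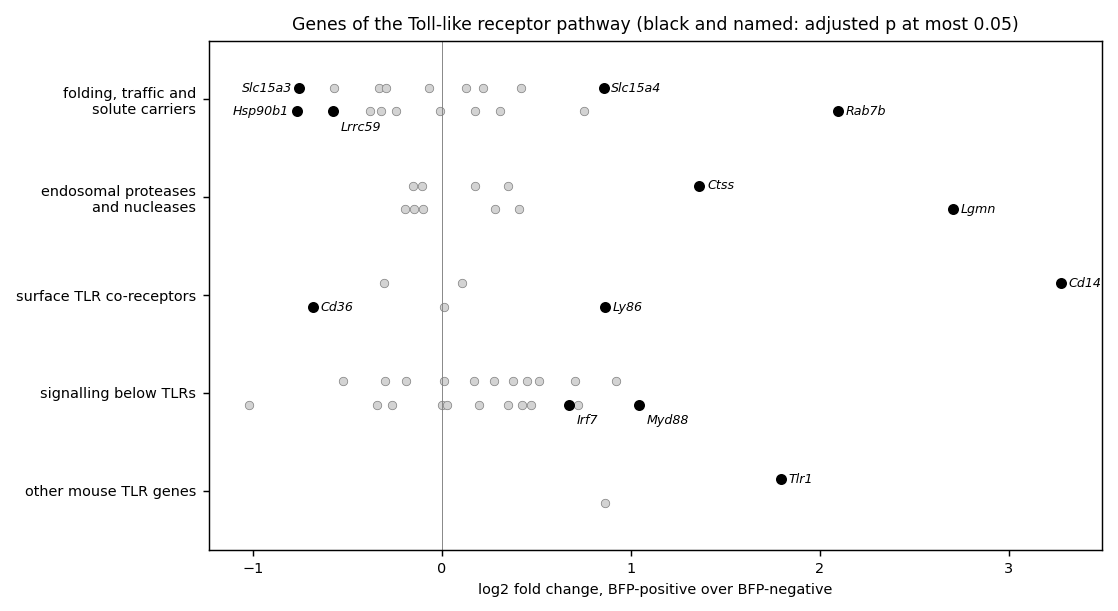
Log2 fold change (horizontal axis, BFP-positive over BFP-negative) of each tested gene of the 5 pathway lists; black named points have an adjusted p of at most 0.05 in edgeR's quasi-likelihood test and grey points do not, and the vertical offset within a row has no meaning. Irak3, which had no BFP-negative count, is left out, and Cd14 lies farthest to the right at 3.28.

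Markers of other cell types moved beside the rise of Tlr13, Tlr1 and Cd14. Of 10 monocyte or macrophage markers 7 were tested, 4 rose and 1 fell, or 71.4% called against 11.1% of all tested genes. Their summed levels were 586 to 702 CPM in BFP-negative and 1118 to 1306 CPM in BFP-positive libraries. Without Ly6c2, the most abundant of them, the sums were 287 to 323 and 342 to 410 CPM. Csf1r, Fcgr1, Lyz2 and Ly6c2 rose and Adgre1 fell, while C1qa and Mertk had no count in any library. Of 9 markers of type 2 conventional dendritic cells 7 were tested and 4 rose, or 57.1% called. Their sums were 123 to 169 CPM against 257 to 319 CPM.

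Beside the fall of Tlr12, 2 of 10 pDC markers, all tested, rose and 3 fell, or 50% called against 11.1% of all tested genes. Their sum was 21980 to 26120 CPM in BFP-negative and 17170 to 18100 CPM in BFP-positive libraries. Most of this sum was Ly6d, at 17276 and 20930 against 13601 and 12562 CPM, and the other 9 markers summed to 4701 to 5189 against 4500 to 4608 CPM. Siglech and Runx2 rose, and Ccr9, Ly6d and Cox6a2 fell. The rise of Siglech was lost when any 1 library was left out (adjusted p of 0.0716 to 0.287), with library totals alone as scaling (0.0841) and by limma on the authors' log2 RPKM (0.101). Of 8 markers of type 1 conventional dendritic cells, all tested, Naaa rose, Cd8a and Cadm1 fell and 5 did not pass, or 37.5% called. The median log2 fold change of these markers was 0.58. Their sum, 1733 to 1757 against 1409 to 1545 CPM, was mostly Cd8a, and without it the sum was 263 to 306 against 367 to 439 CPM. Of 6 B cell markers 4 were tested and 2 fell, or 50% called. The sum was 121 to 123 against 94.7 to 99.5 CPM, or 26.4 to 31.2 against 2.88 to 4.55 CPM without Cd79b. Of 6 neutrophil markers 3 were tested and none passed, with sums of 9.55 to 13.1 against 10.1 to 23.3 CPM. The part of these cell types in the receptor values was not tested.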

How the data were processed

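RNA of 4 sorted libraries was sequenced after cDNA synthesis with a SMART-Seq kit, which marks neither strand nor single molecules, per the labels' protocols. The authors deposited a table of raw gene counts and, per library, log2 RPKM values (reads relative to library total and gene length, log2 scale). Subread, featureCounts and limma with GRCm38 and mm10 are named in the submitters' processing notes; versions and the handling of reads that match several places are not given in the sources used here. In the deposited log2 RPKM tables a gene with 0 counts holds a fixed value.

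Counts were filtered with filterByExpr (minimum count 10, minimum total 15), TMM-scaled and tested with edgeR 4.0.16 (R 4.3.3) by its quasi-likelihood test, with no covariate and 2 residual degrees of freedom, two-sided, with Benjamini-Hochberg adjustment over 11706 genes and a threshold of 0.05. The SE is the log2 fold change divided by the square root of F. The fit was run on simulated counts whose set changes were larger than those of Tlr12 and Tlr7. That run therefore does not measure how the fit treats such smaller changes or genes nearly absent from a group. Alternatives used DESeq2 1.42.0, limma 3.58.1, other scalings and filters, a replicate block, and each library left out. The replicates were separate libraries by their counts (chi-square per degree of freedom 19.8 and 15.5). Positions are RefSeq's on GRCm38.p6, exon overlaps GENCODE's on GRCm38. The 10 genes and all lists were chosen with earlier results of these data known. Named from each pathway list were up to 3 tested genes with the smallest p, plus Hsp90b1, Cnpy3, Slc15a4, Myd88, Irf7, Cxcl10, Siglech and Itgam. Lrrc59, Slc15a3, Ly96 and Tlr5 were named outside this rule.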

Additional observations from a re-analysis of the deposited data

How the results depend on the processing

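Over 15 alternatives, 27 named genes gave 400 values, of which 362 kept both direction and side of the threshold, 20 lost a call, 15 gained one and 3 changed sign. Tlr12 passed in all 15 alternatives and Tlr13 in the 14 that tested it. Leaving out 1 library gave 559 to 921 genes higher and 245 to 408 lower, 1 to 2 of the 10 genes higher and 1 to 2 lower, and log2 fold changes of -0.73 to 0.32 for Tlr9 and -0.26 to 0.15 for Unc93b1. The fits without 1 library assume that the lone sample varies like the other group.

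With limma on the authors' log2 RPKM, 0 of the 10 genes were higher, since Tlr13 and Tlr4 fell under that filter (mean of at least 0) and were not tested. Same-numbered libraries share a code in their titles, but no label says that it marks an animal, batch or day. The deviations of same-numbered libraries from their group means correlated at 0.0594. The other pairing gave -0.0594, its mirror image with 2 libraries a group, so this value does not settle whether they pair. With the replicate block, 1140 genes were higher and 760 lower in edgeR, 1193 and 826 in limma-voom, and 950 and 483 in DESeq2. The edgeR SE went from 0.148 to 0.0857 for Tlr12 and to 0.0681 for Unc93b1, and from 1.12 to 1.25 for Tlr13. In edgeR and limma-voom with the block, 2 of the 10 genes were higher and 2 lower. Tlr7 (adjusted p = 0.036 and 0.0278) and Tlr2 (0.0491 and 0.0415) passed there but not in DESeq2 with the block (0.0886 and 0.125). Irak3 lost its call with the block in edgeR (0.0565) and DESeq2 (0.0627). In DESeq2 with the block 2 of the 10 genes were higher, with Tlr4 added (adjusted p = 0.0476). Low counts limit Tlr3, Tlr4, Tlr11 and Tlr13.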
